A study of Mus musculus with 24 samples.

Results

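Transcripts of 10 checkpoint and costimulatory receptors were followed in 3 splenic subsets of regulatory T (Treg) cells from young and old mice. The genes were *Cd28*, *Icos*, *Ctla4*, *Pdcd1*, *Btla*, *Tigit*, *Cd96*, *Lag3*, *Havcr2* and *Cd160*. They were chosen by name, as members of the CD28 family and receptors known from exhausted T cells, and each was matched to 1 Ensembl identifier among the 17464 genes of the deposited table. WT C57BL/6JRccHsd mice were 2 months old (young) or 26 months old (old), with 4 mice of each age and no treatment or altered allele named in the labels. Mice of both sexes were used in the study. From each spleen, resting Treg cells (rTreg, CD62L+ CD44-), activated Treg cells (aTreg, CD62L- CD44+) and KLRG1+ Treg cells (kTreg) were sorted, so 24 libraries fell into 6 groups of 4. The subsets were thus defined by their gates, and the transcripts of the gated proteins, such as *Cd44* and *Klrg1*, are no findings between them. Bulk RNA was amplified as full-length cDNA and sequenced. The values are normalized counts, that is reads of a gene divided by a size factor of the library.

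T cells are switched on by their antigen receptor together with costimulatory receptors such as CD28 and ICOS, and are held back by inhibitory checkpoint receptors such as CTLA-4 and PD-1. Several of these receptors compete for the same ligands on antigen-presenting cells. CD28 and CTLA-4 share CD80 and CD86, TIGIT and CD96 share CD155 and nectins with the activating receptor CD226, and BTLA and CD160 share HVEM. Treg cells carry CTLA-4 as part of their suppressive equipment, and many checkpoint receptors rise on T cells that have met antigen.

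The genes *Cd28*, *Ctla4*, *Icos* and *Pdcd1* lie on chromosome 1 of GRCm39. *Cd28* (60755959 to 60812518), *Ctla4* (60926159 to 60954991) and *Icos* (61017086 to 61039479) stand side by side on the plus strand, and *Pdcd1* lies on the minus strand (93966027 to 93980312). *Tigit* (43469100 to 43484509, minus), *Btla* (45044475 to 45078033, plus) and *Cd96* (45856020 to 45940614, minus) share chromosome 16. *Havcr2* is on chromosome 11 (46345673 to 46374149, plus), *Lag3* on chromosome 6 (124881320 to 124888765, minus) and *Cd160* on chromosome 3 (96706079 to 96736667, minus). Of these genes only *Cd160* shared exon sequence with another annotated gene, 68 bases with *Pdzk1* on the opposite strand. Whether the counting used strand is not given in the sources used here, so reads of these bases could not be assigned to one strand.

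The promoters of the genes are shown because several of the genes varied together between the subsets. RefSeq windows of 300 bases (250 before and 50 after the start, build GRCm38.p6) existed for 7 of the genes in 8 windows, and each was found by exact match in GRCm39. The word TGTGGTT, a core bound by RUNX factors, or its reverse complement AACCACA, stood in 6 of 8 windows (*Tigit*, *Cd96*, *Havcr2*, *Btla* and both windows of *Cd160*), against 5.29% of all 32544 distinct windows of this length. The stretches below carry that word in capitals. Each is given 5′ to 3′ on the strand of its gene, with GRCm39 coordinates, and where the word lay in an annotated exon only 30 bases around it are shown.
Tigit, chr16:43484548-43484797, minus strand: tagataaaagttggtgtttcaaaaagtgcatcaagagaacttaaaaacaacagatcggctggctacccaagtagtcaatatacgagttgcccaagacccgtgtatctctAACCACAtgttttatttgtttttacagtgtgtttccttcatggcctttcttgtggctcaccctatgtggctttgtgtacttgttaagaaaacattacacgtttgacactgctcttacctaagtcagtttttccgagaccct
Cd96, chr16:45940615-45940861, minus strand: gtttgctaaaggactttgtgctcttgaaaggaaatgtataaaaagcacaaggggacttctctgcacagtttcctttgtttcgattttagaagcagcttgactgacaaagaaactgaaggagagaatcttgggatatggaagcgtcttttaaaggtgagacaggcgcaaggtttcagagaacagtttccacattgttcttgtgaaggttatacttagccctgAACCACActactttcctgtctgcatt
Cd160, second window, chr3:96721849-96722087, minus strand: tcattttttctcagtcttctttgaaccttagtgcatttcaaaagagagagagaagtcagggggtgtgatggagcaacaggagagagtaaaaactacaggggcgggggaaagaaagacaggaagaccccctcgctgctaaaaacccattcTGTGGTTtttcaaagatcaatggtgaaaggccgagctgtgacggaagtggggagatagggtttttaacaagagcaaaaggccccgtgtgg
Cd160, first window, chr3:96736726-96736755, minus strand: tgatctctatcAACCACAcccacacaaacc
Havcr2, chr11:46345701-46345730, plus strand: gcctctgtgggTGTGGTTagcactcgtgat
Btla, chr16:45044510-45044539, plus strand: atcagaaacaaAACCACAgcagggcctctt
The word began between 29 bases (*Cd96*) and 179 bases (*Btla*) before the RefSeq start. The NFAT word GGAAAA was in 2 of 8 windows (*Ctla4* and *Tigit*; 23.3% of all windows), and the TCF word CTTTGAT in 1 (*Ctla4*; 3.73%). The AP-1 word TGACTCA (5.19% of all windows) and the forkhead word TGTTTAC (3.66%) were in 0 of 8, both strands being searched, and the words found did not overlap each other. The genes with the RUNX word moved in both directions between the subsets, as described below. A match of letters is a description of these windows and says nothing of binding.

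Each library held 15045747 to 29521942 reads on the listed genes, and a single read was worth 0.694 to 1.32 normalized counts. *Klrg1* lay between 16559 and 41561 normalized counts in the 8 kTreg libraries and reached at most 357 in the remaining 16. *Foxp3*, *Il2ra* and *Cd4*, which define Treg cells, were at 2901 or above in every library. *Foxp3* was 5079 in old aTreg replicate 2 and 13151 to 37793 in the other libraries. Young kTreg replicate 4 listed 4913 genes at 0, against 419 to 2756 elsewhere. Young mouse 2 carried transcripts of B cells in all its subsets, with *Ms4a1* at 2560.0 in rTreg, 1151 in aTreg and 992 in kTreg cells against at most 117 in every other library, and had the highest macrophage and monocyte sum of each young subset. Leaving out either library or this mouse moved each count of called receptor genes by at most 2, and the main single results that changed are given beside the result. Genes of macrophages and monocytes (6 of 6 in the table) summed to 10235 to 26440.4 normalized counts in old rTreg libraries, against 575 to 8152 in young rTreg, 52.0 to 2861 in young aTreg and 229 to 326 in old aTreg libraries.

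**Figure D1:**
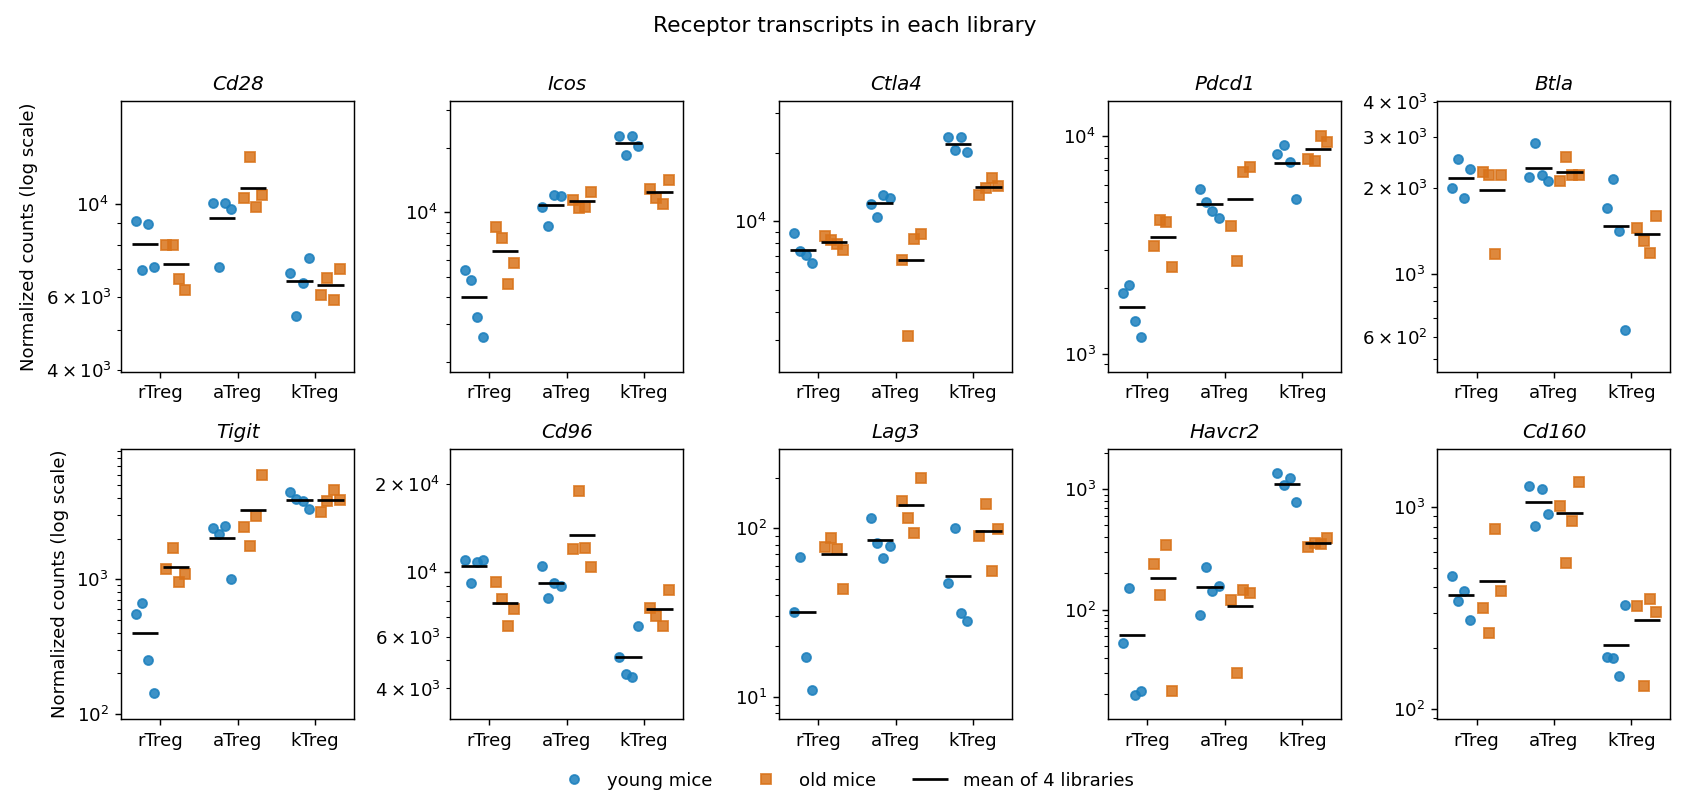
Normalized counts of the 10 receptor genes (vertical axis, log scale) in each of the 24 libraries, by subset (rTreg, aTreg, kTreg) and age (circles, young mice; squares, old mice); bars are means of 4 libraries. *Havcr2* lay at 778 to 1348 in young kTreg cells and at 391 or below in every other library, and *Cd160* was highest in the aTreg groups.

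The subsets differed most in *Havcr2*, *Tigit* and *Cd160*. Against aTreg cells of the same mice, kTreg cells had more *Ctla4*, *Pdcd1* and *Havcr2* and less *Cd28*, *Btla*, *Cd96* and *Cd160*, with both ages weighted equally. Genes were called where limma, fitted across 16630 genes, gave a Benjamini-Hochberg adjusted p under 0.05 together with a fold over 1.5. By this rule 3 of 10 receptor genes were higher (background 4.13% of genes) and 4 were lower (3.26%). Against rTreg cells, kTreg cells were higher in 5 (*Icos*, *Ctla4*, *Pdcd1*, *Tigit* and *Havcr2*; background 9.37%) and lower in 1 (*Cd160*; 6.09%). aTreg cells were higher than rTreg cells in 5 (*Icos*, *Pdcd1*, *Tigit*, *Lag3* and *Cd160*; 5.23%) and lower in 0 (2.78%). All 10 genes had passed the filter on low values. The median absolute log2 difference of the 10 genes was 0.75 between kTreg and aTreg cells, against 0.32 over all genes tested. In bulk RNA, fewer cells that carry a transcript and less of it per cell cannot be told apart. The 3 comparisons share libraries, so their calls are not independent of each other. Ranges of 4 libraries without overlap are given below as descriptions. Of all genes tested, 13.5 to 21.9% did not overlap between 2 subsets of the same age. Between the ages within a subset, 10.5 to 13.4% did not overlap.

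**Figure D2:**
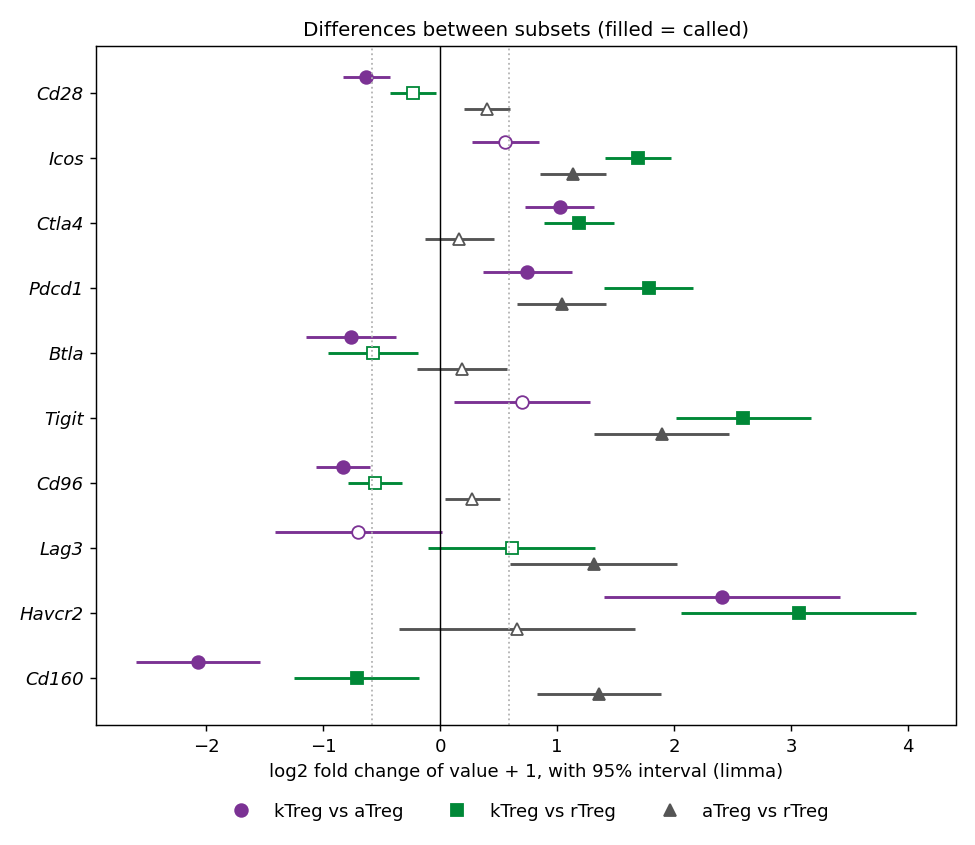
log2 fold change (value + 1) of each receptor gene between subsets, with both ages weighted equally and the 95% interval from limma; filled symbols passed the thresholds, and dotted lines mark a fold of 1.5. *Cd160* lay below 0 in kTreg against aTreg cells and above 0 in aTreg against rTreg cells.

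*Cd28*, the receptor that gives the main costimulatory signal, varied little between the groups. It was 9089, 6938, 8969 and 7086 normalized counts in young rTreg cells, 10066, 7073, 10082 and 9755 in young aTreg cells and 6844, 5386, 6457 and 7428 in young kTreg cells. In old mice it was 7965, 7997, 6631 and 6221 in rTreg cells, 10362, 12999, 9821 and 10514 in aTreg cells and 6072, 6654, 5893 and 6980.0 in kTreg cells. The old kTreg and old aTreg libraries did not overlap, whereas the young groups did. *Cd28* was lower in kTreg than in aTreg cells by a log2 fold change of −0.63 ± 0.095 (SE; adjusted p = 0.00013, limma; lower in 8 of 8 mice), and kTreg against rTreg cells gave −0.23 ± 0.095 (adjusted p = 0.087). The highest group mean (old aTreg, 10924 ± 1415, SD, n = 4) was 1.71 times the lowest (old kTreg, 6399.9 ± 505), and in the order of the 6 group means every range of 4 libraries overlapped the next.

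*Icos*, a costimulator induced on activated T cells, rose in steps across the subsets in young mice. Young rTreg libraries held 5393, 4796, 3255 and 2604 normalized counts, young aTreg libraries 10604, 8649, 12021 and 11848, and young kTreg libraries 22621, 18545, 22747 and 20436. These 3 young groups did not overlap. Old rTreg libraries held 8507, 7565, 4597 and 5775, old aTreg libraries 11432, 10475, 10556 and 12416, and old kTreg libraries 12838, 11642, 10933 and 14165. The old kTreg and aTreg libraries overlapped each other, and both lay above old rTreg cells. Over both ages, *Icos* was higher in kTreg than in rTreg cells (log2 fold change 1.69 ± 0.14, adjusted p = 8.1e-09, limma) and in aTreg than in rTreg cells (1.14 ± 0.14, adjusted p = 9.7e-06). Its difference between kTreg and aTreg cells was 0.56 ± 0.14 (adjusted p = 0.0090), a fold of 1.47 that stayed under the fold threshold. In young mice alone that difference was 0.97 ± 0.19 (adjusted p = 0.0024) and in old mice alone 0.14 ± 0.19 (adjusted p = 0.83). The difference between those differences was −0.83 ± 0.27 and was not called (adjusted p = 0.33). In the order of group means, young kTreg cells (21087 ± 1999) stood apart from old kTreg cells (12394 ± 1418), and young aTreg cells stood apart from old rTreg cells below them.

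*Ctla4*, the inhibitory competitor of CD28, was highest in kTreg cells. Young kTreg libraries held 23423, 20444, 23445 and 20206 normalized counts, young aTreg libraries 11947, 10431, 13058 and 12617, and young rTreg libraries 8911, 7369.9, 7070.1 and 6521. Old kTreg libraries held 13016, 13965, 15428 and 14267, old aTreg libraries 6765, 3128, 8321 and 8745, and old rTreg libraries 8593, 8242, 7909 and 7500.3. kTreg libraries lay above the aTreg and rTreg libraries of their own age in all cases, and old aTreg replicate 2, the library with low *Foxp3*, held the lowest value of all. *Ctla4* was higher in kTreg than in aTreg cells (log2 fold change 1.02 ± 0.14, adjusted p = 6.1e-05, limma; 8 of 8 mice) and in kTreg than in rTreg cells (1.18 ± 0.14, adjusted p = 2.3e-06; 8 of 8 mice). Without old aTreg replicate 2 the difference from aTreg cells was 0.85 (adjusted p = 3.1e-07). aTreg against rTreg cells gave 0.16 ± 0.14 (adjusted p = 0.58), a value that averages unlike ages. In young mice it was 0.69 without overlap and was not called (adjusted p = 0.060, limma). In old mice the group means were 6740 ± 2554 in aTreg and 8061 ± 466 in rTreg cells (SD, n = 4), with overlapping ranges.

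Within a library, the log2 ratio of *Ctla4* to *Cd28* (value + 1) sets the inhibitory receptor against the costimulator with the same ligands, and library size largely cancels in it. It was 1.77, 1.92, 1.86 and 1.444 in young kTreg cells, against 0.25, 0.56, 0.37 and 0.37 in young aTreg cells and −0.03, 0.09, −0.34 and −0.12 in young rTreg cells. In old mice it was 1.10, 1.07, 1.39 and 1.03 in kTreg cells, −0.62, −2.05, −0.24 and −0.27 in aTreg cells and 0.11, 0.04, 0.25 and 0.27 in rTreg cells. All 8 kTreg libraries lay above all others, and the old kTreg libraries lay below the young ones. The group means were 1.75 ± 0.21 (SD, n = 4) in young and 1.15 ± 0.16 in old kTreg cells. The order of the other subsets was not the same at both ages: the ratio was higher in aTreg than in rTreg cells in young mice and lower in old mice. No test was run on the ratios, and the reads of the 2 genes differ in transcript length, so the ratio compares libraries and not the amounts of the receptors.

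**Figure D3:**
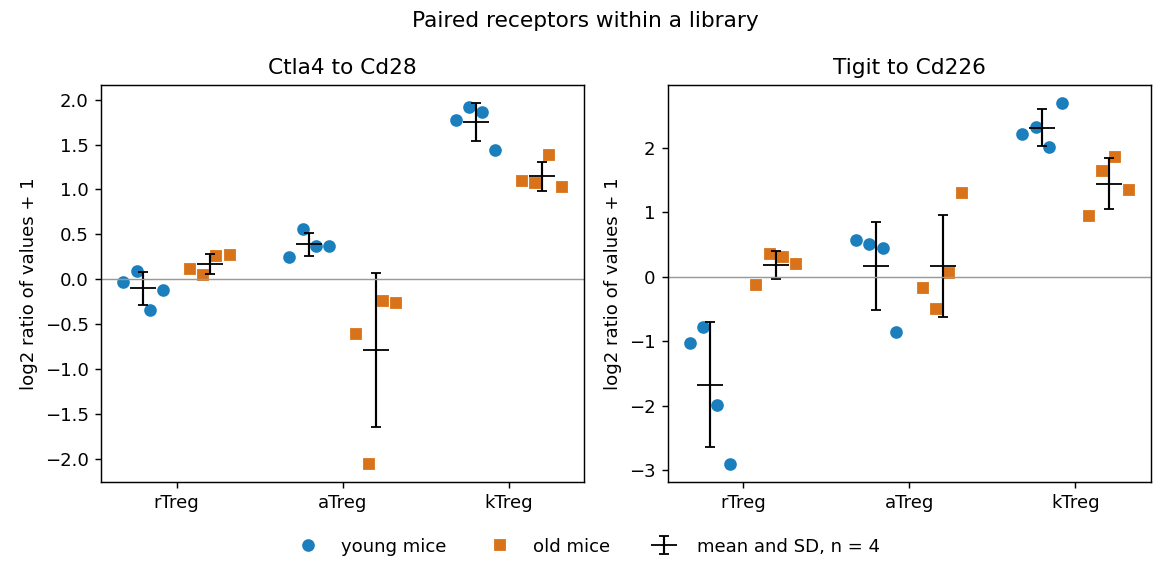
log2 ratio of *Ctla4* to *Cd28* (left) and of *Tigit* to *Cd226* (right) in each library, by subset and age, with mean and SD of 4 libraries. In both panels the young kTreg libraries are the highest group, at 1.444 to 1.92 and 2.01 to 2.69.

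*Pdcd1*, which encodes PD-1, increased from rTreg to aTreg to kTreg cells. Young libraries held 1896, 2068, 1412 and 1194 normalized counts in rTreg, 5719, 5004, 4538 and 4208 in aTreg and 8309, 9156, 7623 and 5142 in kTreg cells. Old libraries held 3143, 4118, 4021 and 2517 in rTreg, 3854, 2666, 6825 and 7245 in aTreg and 7845, 7719.5, 10061 and 9436 in kTreg cells. The old aTreg libraries spread widely and overlapped the old rTreg libraries. *Pdcd1* was higher in kTreg than in rTreg cells (log2 fold change 1.78 ± 0.18, adjusted p = 2.5e-07, limma), in kTreg than in aTreg cells (0.74 ± 0.18, adjusted p = 0.0093) and in aTreg than in rTreg cells (1.04 ± 0.18, adjusted p = 0.00057). With age left out of the model, the difference from aTreg cells missed the threshold (adjusted p = 0.052). Genes of follicular T cells, which carry much PD-1, ICOS and BTLA (*Cxcr5*, *Bcl6*, *Il21* and *Sh2d1a*, 4 of 4 in the table and none at 0 throughout a group), summed to 4197 to 8087 in the aTreg libraries, 3245 to 5624 in the rTreg libraries and 2600.4 to 4223 in the kTreg libraries. Between kTreg and aTreg cells 0 of the 4 were called higher and 2 lower, and their part in the values of *Pdcd1*, *Icos* and *Btla* was not tested.

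*Btla*, the inhibitory receptor for HVEM, was lower in kTreg than in aTreg cells (log2 fold change −0.76 ± 0.19, adjusted p = 0.0085, limma; 8 of 8 mice). kTreg libraries held 1700.0, 2140.0, 1409 and 634 normalized counts in young and 1448, 1298, 1178 and 1587 in old mice. aTreg libraries held 2182, 2870.4, 2214 and 2114 in young and 2113, 2572, 2217 and 2214 in old mice. The lowest value, 634, came from young kTreg replicate 4, the library with many genes at 0, and without it the difference was −0.58 (adjusted p = 0.0043), just under a fold of 1.5. rTreg libraries held 1992, 2515, 1836 and 2326 in young and 2264, 2222, 1173 and 2219 in old mice, and all neighbouring groups overlapped. Against rTreg cells the kTreg difference was −0.58 ± 0.19 (adjusted p = 0.027), again under the fold threshold. B cells also carry BTLA, and in young mouse 2, the mouse with high *Ms4a1*, *Btla* had the highest value of each young subset (2515, 2870.4 and 2140.0). Without that mouse the kTreg to aTreg difference was −0.82 (adjusted p = 0.0064), and the kTreg to rTreg difference was −0.65 and passed (adjusted p = 0.016). The 6 of 6 listed B cell genes summed to 22363 to 80401 over all libraries, and 0 of them were called between subsets.

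*Tigit*, an inhibitory receptor for CD155, had the widest span after *Havcr2*. Young rTreg libraries held 548, 668, 250.5 and 143 normalized counts, young aTreg libraries 2421, 2156, 2489 and 1009, and young kTreg libraries 4472, 3965, 3851 and 3339. The young groups did not overlap, and the highest group mean was 9.72 times the lowest. Old rTreg libraries held 1197, 1702, 956 and 1091, old aTreg libraries 2467, 1776, 2970.0 and 5975, and old kTreg libraries 3147, 3789, 4625 and 3917. *Tigit* was higher in kTreg than in rTreg cells, by 2.59 ± 0.28 in log2 (adjusted p = 4.8e-07, limma), and in aTreg than in rTreg cells by 1.89 ± 0.28 (adjusted p = 8.9e-05), each in 8 of 8 mice. kTreg against aTreg cells gave 0.70 ± 0.28 (adjusted p = 0.11; higher in 7 of 8 mice). Without old aTreg replicate 4, which held 5975, that difference was 0.87 and passed (adjusted p = 0.040).

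*Cd226*, the activating receptor that competes with TIGIT, moved differently from *Tigit*. It was lower in kTreg than in aTreg cells (log2 fold change −1.01 ± 0.13, adjusted p = 1.9e-05, limma) and higher in aTreg than in rTreg cells (0.98 ± 0.13, adjusted p = 2.6e-05). The log2 ratio of *Tigit* to *Cd226* was 2.21, 2.32, 2.01 and 2.69 in young kTreg, 0.56, 0.51, 0.45 and −0.86 in young aTreg and −1.02, −0.78, −1.99 and −2.90 in young rTreg libraries. The order in young mice was therefore kTreg, aTreg, rTreg without overlap between kTreg cells and the others. In old mice it was 0.94, 1.63, 1.86 and 1.34 in kTreg, −0.18, −0.51, 0.06 and 1.29 in aTreg and −0.13, 0.35, 0.30 and 0.20 in rTreg libraries, and old aTreg and rTreg cells had means of 0.17 ± 0.79 and 0.18 ± 0.21. *Pvrig*, a related inhibitory receptor, followed *Tigit*, with log2 fold changes of 3.97 in kTreg against rTreg and 1.28 in kTreg against aTreg cells (adjusted p = 1.9e-07 and 0.039, limma).

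*Cd96*, the third receptor for CD155 and among the most abundant of the 10 genes, was lower in kTreg than in aTreg cells at both ages. kTreg libraries lay below rTreg libraries in young mice, whereas the old ones overlapped. Young kTreg libraries held 5131, 4479, 4386 and 6534 normalized counts, young aTreg libraries 10535, 8133, 9194 and 8978, and young rTreg libraries 11036, 9173, 10838 and 11034. Old kTreg libraries held 7569.7, 7078, 6529.9 and 8663, old aTreg libraries 12045, 18939.8, 12118 and 10425, and old rTreg libraries 9294, 8102, 6531 and 7458. At each age the kTreg and aTreg libraries did not overlap. *Cd96* was lower in kTreg than in aTreg cells (log2 fold change −0.83 ± 0.11, adjusted p = 3.4e-05, limma; 8 of 8 mice), and without old aTreg replicate 2, which held the highest value, by −0.74 (adjusted p = 2.6e-05). Against rTreg cells the difference over both ages was −0.56 ± 0.11 (adjusted p = 0.00077), a fold of 1.47 the other way, and without young kTreg replicate 4 it was −0.62 and passed (adjusted p = 0.00015). This value averages −1.05 in young and −0.07 in old mice.

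*Havcr2*, which encodes TIM-3, separated young kTreg cells from every other group. Young kTreg libraries held 1348, 1072, 1243 and 778 normalized counts, and old kTreg libraries 328, 354, 353 and 391. Young aTreg libraries held 90.2, 224, 144 and 158, and young rTreg libraries 53.4, 151, 19.8 and 21.1. Old aTreg libraries held 119.9, 30.0, 146 and 137, and old rTreg libraries 241, 131, 345 and 21.3. *Havcr2* was higher in kTreg than in aTreg cells, by 2.41 ± 0.49 in log2 (adjusted p = 0.0020, limma), and in kTreg than in rTreg cells by 3.07 ± 0.49 (adjusted p = 6.5e-05), each in 8 of 8 mice. Macrophages and dendritic cells also carry TIM-3. Their 6 listed macrophage and monocyte genes summed to 943, 19824, 633 and 0 in the young kTreg libraries in the same order, and to 1954 to 2883 in old kTreg libraries, against 52.0 to 2861 in young and 229 to 326 in old aTreg libraries. Their median log2 difference between kTreg and aTreg cells was 2.32, with 1 of 6 called higher and 0 lower. Young kTreg replicate 4, the library with 4913 genes at 0, held 778 of *Havcr2* and listed all 6 of these genes at 0. The part of these cells in the *Havcr2* values was not tested. Without young mouse 2, whose macrophage sum was the highest of each young subset, the difference from aTreg cells was 2.51 (adjusted p = 0.0026). The sums of the 5 dendritic cell genes were 215 to 931 in young and 376 to 716 in old kTreg cells, against 54.6 to 539.6 in young and 171 to 367 in old aTreg cells. Of these genes *Zbtb46* had medians of 283 in young and 419 in old kTreg cells, against 148 and 280 in aTreg cells. Each of the remaining genes had a median of at most 46.2 in these groups.

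*Lag3*, an inhibitory receptor for MHC class II, was the lowest of the genes beside *Havcr2*. Its values were 31.8, 67.6, 17.1 and 11.04 in young rTreg, 115, 82.3, 66.7 and 78.8 in young aTreg and 47.1, 100.4, 31.4 and 28.4 in young kTreg libraries. In old mice they were 77.1, 87.4, 74.9 and 43.4 in rTreg, 144, 115, 93.6 and 198 in aTreg and 90.1, 139, 56.2 and 98.5 in kTreg libraries. These values rest on few reads, and all neighbouring groups overlapped. *Lag3* was higher in aTreg than in rTreg cells (log2 fold change 1.31 ± 0.34, adjusted p = 0.015, limma; 8 of 8 mice), and its differences of kTreg cells were −0.70 ± 0.34 from aTreg cells (adjusted p = 0.21) and 0.61 ± 0.34 from rTreg cells (adjusted p = 0.22). The aTreg call was lost with age left out of the model (adjusted p = 0.062) and without young mouse 1 (0.053), young mouse 3 (0.052), old mouse 1 (0.051) or old mouse 4 (0.092).

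*Cd160*, a receptor for HVEM known from natural killer cells and cytotoxic T cells, was the member with the largest fall in kTreg cells. It was 1277, 801, 1232 and 922 normalized counts in young aTreg and 1012, 527, 852 and 1331 in old aTreg libraries. kTreg libraries held 182, 178, 146 and 329 in young and 322, 129.8, 351 and 303 in old mice, all below every aTreg library. rTreg libraries held 455, 341, 385 and 277 in young and 316, 237, 779 and 382 in old mice. *Cd160* was lower in kTreg than in aTreg cells by −2.07 ± 0.26 in log2 (adjusted p = 1.4e-05, limma; lower in 8 of 8 mice), a fold of 4.21. It was higher in aTreg than in rTreg cells by 1.36 ± 0.26 (adjusted p = 0.0010; 8 of 8 mice). The lower level in kTreg than in rTreg cells (−0.72 ± 0.26, adjusted p = 0.048; lower in 6 of 8 mice) was lost in 24 of 45 alternative settings. The 6 listed genes of natural killer cells summed to 702 to 1838 in aTreg, 334 to 2061 in rTreg and 349 to 876 in kTreg libraries, and 1 of them was called higher and 1 lower in kTreg than in aTreg cells. Of the 2 CD8 T cell genes, *Cd8a* had medians of at most 27.5 in any group with a highest library at 744, and *Cd8b1* had medians of 238 to 628 with a highest library at 1440.1, and 0 of 2 were called between subsets. Their part in the *Cd160* values was not tested.

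Within each age, 4 libraries of 1 subset were compared with 4 of another. The calls came from the model of all 24 libraries, with 1 shared estimate of the spread. In young mice 5 receptor genes differed between kTreg and aTreg cells (6.95% of all genes), 6 between kTreg and rTreg cells (15.8%) and 4 between aTreg and rTreg cells (3.35%). In old mice the counts were 4 (2.2%), 4 (8.86%) and 5 (8.6%). Young kTreg cells differed from young aTreg cells in *Icos*, *Ctla4*, *Havcr2*, *Cd96* and *Cd160*, and old kTreg cells from old aTreg cells in *Cd28*, *Ctla4*, *Cd96* and *Cd160*. For *Havcr2* the young difference was 2.88 ± 0.69 (adjusted p = 0.010, limma), whereas the old one was 1.94 ± 0.69 (adjusted p = 0.15). The old groups did not overlap in *Havcr2*, as in 21.2% of all genes. The difference between the young and old values was not called (−0.95 ± 0.97, adjusted p = 0.73). Old kTreg cells exceeded old rTreg cells in *Icos*, *Ctla4*, *Pdcd1* and *Tigit*. Young aTreg cells exceeded young rTreg cells in *Icos*, *Pdcd1*, *Tigit* and *Cd160*, and old aTreg cells exceeded old rTreg cells in *Cd28*, *Icos*, *Tigit*, *Cd96* and *Cd160*. Without old aTreg replicate 2, *Cd96* (0.56, adjusted p = 0.017) and *Cd28* (0.51, adjusted p = 0.027) in the last comparison stayed under the fold threshold, and 3 of the 5 were called. In old mice the *Cd160* call was lost in 13 of 44 alternative settings, edgeR (adjusted p = 0.051) and the removal of young mouse 2 (0.055) among them, and the *Tigit* call in 10 of 44, with adjusted p up to 0.28 without old mouse 4. The young *Cd160* call was lost in 7 of 44, with adjusted p = 0.056 without young mouse 2 and up to 0.14 without young mouse 3. *Ctla4* in young kTreg against aTreg cells was 0.83 without young mouse 2 (adjusted p = 0.051), against 0.87 ± 0.20 with it (adjusted p = 0.0089). With the 3 subsets of a mouse as a replicate block, 3 further calls were made in young mice: *Btla* lower in kTreg than in aTreg cells (adjusted p = 0.049, against 0.064), and *Ctla4* and *Lag3* higher in aTreg than in rTreg cells (0.046 and 0.039, against 0.060 and 0.056). The last pair also passed without young kTreg replicate 4 (adjusted p = 0.044 and 0.029).

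Age was compared within each subset, between different mice. In rTreg cells, old mice had more *Icos*, *Pdcd1* and *Tigit* than young mice, 3 of 10 genes higher (background 4.12%) and 0 lower (1.71%). In aTreg cells, 0 were higher (1.85%) and 1, *Ctla4*, was lower (0.86%). In kTreg cells, 0 were higher (1.02%) and 1, *Icos*, was lower (0.235%). Whether these age effects differed between subsets is given below by a test of the difference itself.

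**Figure D4:**
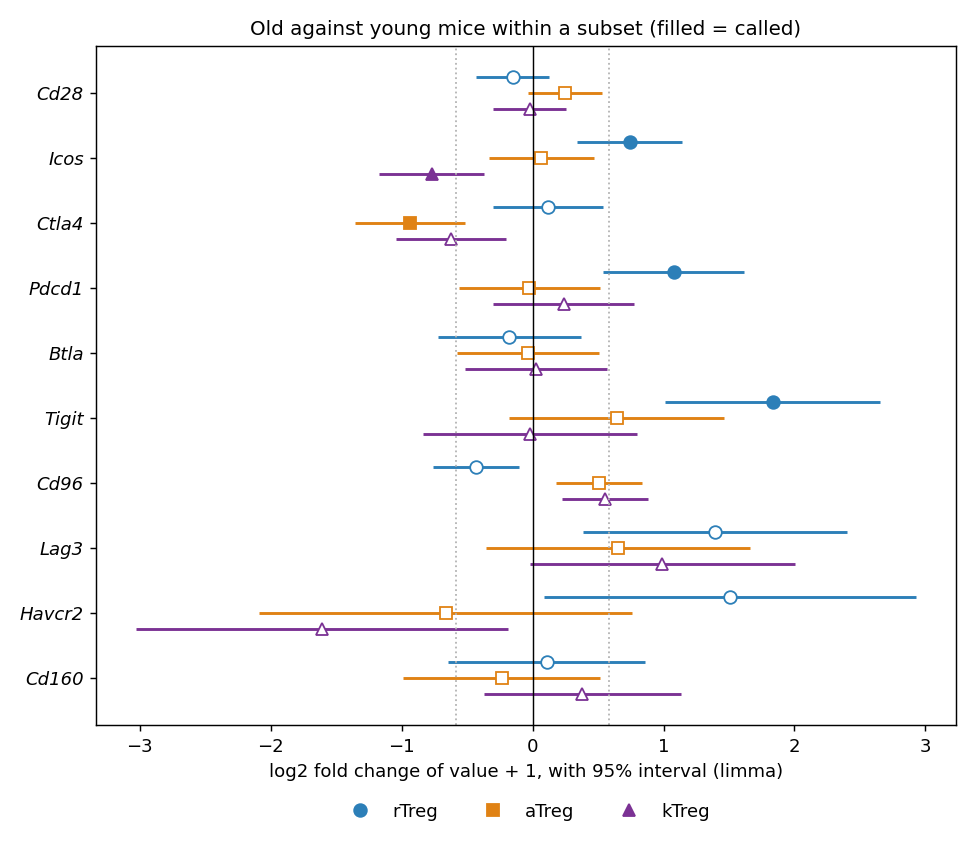
log2 fold change (value + 1) of old against young mice for each receptor gene in rTreg, aTreg and kTreg cells, with the 95% interval from limma; filled symbols passed the thresholds, and dotted lines mark a fold of 1.5. *Tigit* stands at 1.83 in rTreg cells and at −0.02 in kTreg cells.

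The rTreg gain was largest in *Tigit*, at 1.83 ± 0.39 in log2 (adjusted p = 0.0059, limma), where old libraries lay at 956 to 1702 and young ones at 143 to 668 without overlap. Its call was lost in 1 of 44 alternative settings, with only the groups compared in the fit (adjusted p = 0.0503). *Pdcd1* rose by 1.08 ± 0.26 (adjusted p = 0.014), from 1194 to 2068 in young to 2517 to 4118 in old rTreg libraries, also without overlap. *Icos* rose by 0.74 ± 0.19 (adjusted p = 0.022) with overlapping ranges. *Pdcd1* missed the threshold without young rTreg replicate 3 (1.02, adjusted p = 0.054) or replicate 4 (0.93, adjusted p = 0.055), and *Icos* without either of these (adjusted p = 0.092 and 0.087) or without old rTreg replicate 1 or 2 (0.068 and 0.062). *Lag3* gave 1.39 ± 0.49 (adjusted p = 0.087, and 0.049 without young kTreg replicate 4), and *Havcr2* 1.51 ± 0.69 (adjusted p = 0.20). Without old rTreg replicate 4, which held 21.3, *Havcr2* gave 2.34 (adjusted p = 0.019). Macrophage and monocyte genes had a median sum of 1126 in young and 14075 in old rTreg libraries, with 0 of the 6 genes called, and their part in the *Havcr2* values was not tested. Without young mouse 2 the *Havcr2* value was 2.10 (adjusted p = 0.078), and *Lag3*, at 1.85, passed (adjusted p = 0.013). Plasma cell and natural killer cell genes also had higher sums in old rTreg libraries (medians 3968 against 138, and 1732 against 408). The part of these cells in the *Tigit* values was not tested. The 4 follicular T cell genes summed to 3245 to 4276 in young and 4653 to 5624 in old rTreg libraries, with 0 called. The part of follicular T cells in the *Pdcd1* and *Icos* values was not tested.

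In aTreg cells *Ctla4* fell with age, with a log2 difference of −0.93 ± 0.20 (adjusted p = 0.011, limma), from 10431 to 13058 in young to 3128 to 8745 in old libraries. Without old aTreg replicate 2 the change was −0.60 (adjusted p = 0.0043), and the remaining old libraries still lay below all young ones. The call was lost in 2 of 44 alternative settings, with only the groups compared and without young mouse 3. *Foxp3* was also lower, at 5079 to 19813 in old and 20351 to 25465 in young aTreg libraries. *Il2ra* was 2901 to 4558 against 7549 to 9925, and *Cd4* overlapped (13708 to 16985 against 11854 to 15638). Of the 6 listed Treg genes 0 were called higher and 1 lower. Any link of these values to *Ctla4* was not tested. *Cd96* gave 0.51 ± 0.16 (adjusted p = 0.096), and 0.33 without old aTreg replicate 2 (adjusted p = 0.43).

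In kTreg cells *Icos* was lower in old than in young mice by −0.77 ± 0.19 (adjusted p = 0.0497, limma), with 18545 to 22747 in young and 10933 to 14165 in old libraries. The median of all genes stood at 0.12 in this comparison. The *Icos* ranges did not overlap, yet the call was lost in 27 of 44 alternative settings, edgeR on the recovered reads (−0.79, adjusted p = 0.066) and the removal of any single old kTreg library among them. Over all 44 settings the value ran from −0.84 to −0.71 and the adjusted p from 0.0086 to 0.14. *Ctla4* (−0.63 ± 0.20, adjusted p = 0.14) and *Havcr2* (−1.61 ± 0.69, adjusted p = 0.27) also had old libraries below all young ones without being called. Of all genes, 10.5% had no overlap between old and young kTreg libraries. With only the kTreg libraries in the fit, *Ctla4* and *Havcr2* were called as well (adjusted p = 0.034 and 0.031). Without old aTreg replicate 2, which is far from the other old aTreg libraries in *Ctla4*, the *Ctla4* value in kTreg cells was the same and its adjusted p was 0.0024. *Cd96* gave 0.55 ± 0.16 (adjusted p = 0.088), and 0.67 without young kTreg replicate 4 (adjusted p = 0.038). *Cd28*, *Btla* and *Tigit* had changes of −0.02, 0.03 and −0.02, with intervals of −0.30 to 0.26, −0.52 to 0.57 and −0.82 to 0.80.

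The test of whether a subset difference itself changed with age called 2 receptor genes for kTreg against rTreg cells (background 3.02%), 1 for aTreg against rTreg cells (1.56%) and 0 for kTreg against aTreg cells (0.156%; 1 gene, *Icos*, at an unadjusted p below 0.05). The excess of *Icos* in kTreg over rTreg cells was 2.45 ± 0.19 in young and 0.94 ± 0.19 in old mice, a difference of −1.51 ± 0.27 (adjusted p = 0.0039, limma). It was called in all 44 alternative settings. For *Cd96* the kTreg to rTreg difference was −1.05 ± 0.16 in young and −0.07 ± 0.16 in old mice, and these differed by 0.98 ± 0.22 (adjusted p = 0.016). Its aTreg against rTreg difference was also higher in old mice by 0.94 ± 0.22 (adjusted p = 0.039), by 0.76 without old aTreg replicate 2 (adjusted p = 0.069) and by 0.94 without young mouse 2 (adjusted p = 0.062), and the call was lost in 18 of 44 settings. The corresponding values for kTreg against rTreg cells were −1.85 ± 0.56 for *Tigit* (adjusted p = 0.074) and −3.12 ± 0.97 for *Havcr2* (adjusted p = 0.084), and both were called by DESeq2 (adjusted p = 0.043 and 0.0057) and by limma without young mouse 2 (adjusted p = 0.042 for each). For *Ctla4* in aTreg against rTreg cells the value was −1.05 ± 0.29 (adjusted p = 0.067), and it passed without old aTreg replicate 2 (−0.72, adjusted p = 0.031) or without young kTreg replicate 4 (−1.05, adjusted p = 0.043).

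Levels of different genes were compared only per kilobase, by dividing the group mean by the total exon length in GENCODE M39. *Ctla4* led in young aTreg (5156 normalized counts per kb), young kTreg (9390.3) and old kTreg cells (6081), and *Cd96* in young rTreg (4817), old rTreg (3593) and old aTreg cells (6127). *Icos*, *Pdcd1* and *Tigit* took the next places in kTreg cells, with 6148, 3842 and 3724 per kb in young and 3614, 4456 and 3689 in old mice. *Lag3* and *Havcr2* were the 2 lowest in the rTreg and aTreg groups, at 12.6 to 62.0 per kb. In young kTreg cells *Havcr2* (228) passed *Cd160* (78.6), while in old kTreg cells it did not (73.1 against 104). Exon lengths sum all annotated transcripts, so a gene with long unused exons is placed too low.

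**Figure D5:**
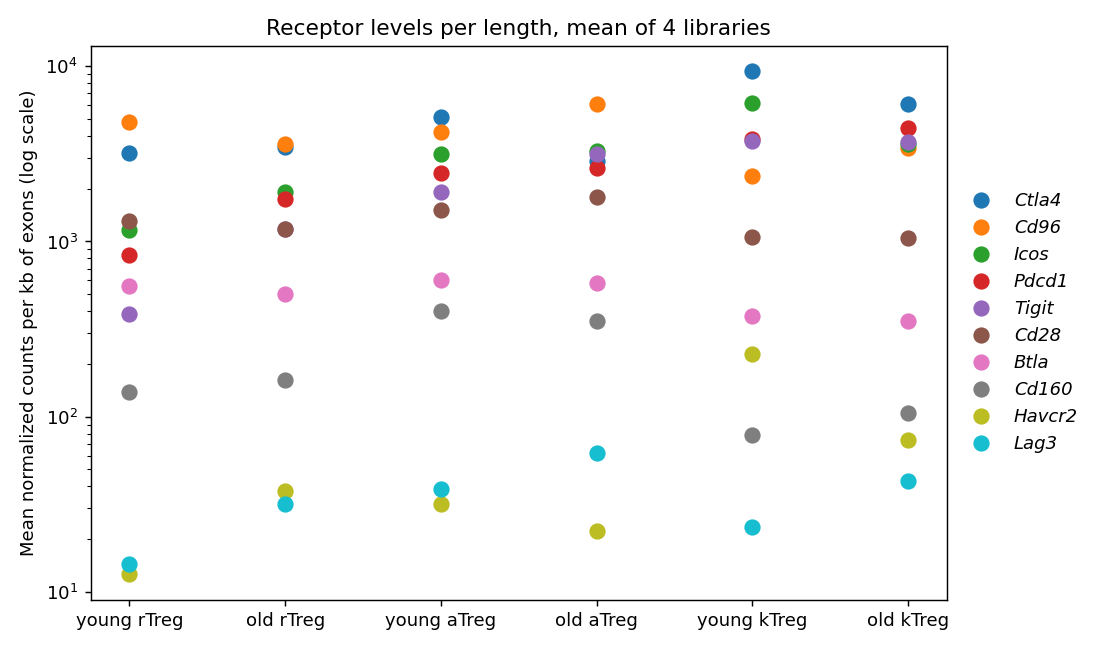
Mean normalized counts per kilobase of exon (vertical axis, log scale; 4 libraries per group) of the 10 receptor genes in the 6 groups. *Ctla4* or *Cd96* is the highest in every group, and *Lag3* and *Havcr2* lie lowest in the rTreg and aTreg groups.

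Across the 24 libraries, which include 3 from each mouse and 6 groups, the log2 levels of the receptors fell along a few lines, given here as descriptions. *Tigit* and *Pdcd1* had a Pearson r of 0.93, *Tigit* and *Icos* 0.89, and *Ctla4* and *Havcr2* 0.82. *Cd28* and *Cd96* had an r of 0.82, and *Cd96* ran against *Ctla4* (−0.84) and *Havcr2* (−0.77). Among the other 16629 tested genes, those most like each receptor were *Scamp3* (0.88) and *Cd96* for *Cd28*, *Tmem154* (0.94) and *Il12rb1* (0.92) for *Icos*, *Ildr1* (0.92) and *Gm3739* (0.91) for *Ctla4*, and *Zcchc18* (0.96) and *Nfil3* (0.95) for *Pdcd1*. For *Tigit* they were *Maf* (0.96), a transcription factor, and *Pvrig* (0.95). *Havcr2* was closest to *Irf5* (0.92) and *Cep85* (0.91), *Btla* to *Nfs1* (0.92) and *Pum3* (0.88), and *Cd96* to *Acat1* (0.89) and *Skap1* (0.88). *Lag3* was closest to *Il1r2* (0.88) and *Arl6* (0.86), and *Cd160* to *Ckb* (0.80) and *Ldlrad4* (0.79).

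The lists of other pathway genes were chosen with earlier results known, and their counts are given beside the share of all genes called. Of the 14 of 15 listed ligand genes in the table, 2 were higher in kTreg than in aTreg cells (4.13% of all genes) and 0 lower (3.26%): *Lgals3*, which encodes galectin-3 (log2 fold change 2.45 ± 0.27, adjusted p = 3.4e-06, limma), and *Cd80*, the ligand of CD28 and CTLA-4 (2.01 ± 0.42, adjusted p = 0.0027). *Lgals3* was 2359 ± 482 in young and 1276 ± 249 in old kTreg cells (SD, n = 4). In rTreg cells it was 355 ± 192 in young and 2470 ± 1006 in old mice. Old rTreg libraries also had the highest median macrophage and monocyte sum (14075). The part of macrophages and monocytes in the *Lgals3* values was not tested. Against rTreg cells 5 ligand genes were higher in kTreg cells (9.37%) and 2 lower (6.09%), and 2 were higher (5.23%) and 1 lower (2.78%) in aTreg cells. With age the counts were 1 higher in rTreg (4.12%), 1 higher and 1 lower in aTreg (1.85% and 0.86%), and 1 higher in kTreg cells (1.02%). The median log2 difference of the ligands between kTreg and aTreg cells was −0.17, against −0.08 over all genes.

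The same shares of all genes apply to the following lists. Of 17 other co-receptor genes, 1 was higher (*Pvrig*) and 2 lower in kTreg than in aTreg cells (4.13% and 3.26% of all genes), *Cd226* and *Cd200*, an inhibitory ligand of the same superfamily (−0.64 ± 0.15, adjusted p = 0.0078, limma). *Cd200* was 2934 ± 318 in young aTreg and 1328 ± 306 in young kTreg cells (SD, n = 4). In old mice it was 1524 ± 479 in aTreg and 1403 ± 406 in kTreg cells, with overlapping ranges. The counts of this list were 3 higher and 1 lower for kTreg against rTreg cells and 3 higher for aTreg against rTreg cells. With age, 1 was higher in rTreg cells, 1 lower in aTreg cells and 1 higher in kTreg cells, the last being *Cd226* (0.85 ± 0.18, adjusted p = 0.021). Of 23 signalling and trafficking genes 0 were higher and 2 lower in kTreg than in aTreg cells, the adaptors *Grap2* (−0.68 ± 0.14, adjusted p = 0.0026) and *Trat1* (−0.62 ± 0.19, adjusted p = 0.040). *Trat1* was 2281 ± 563 in young aTreg and 2459 ± 469.9 in young kTreg cells (SD, n = 4), against 7821 ± 5048 in old aTreg and 2671 ± 228 in old kTreg cells, with 15206 in old aTreg replicate 2 and 4091 to 6802 in the other old aTreg libraries. In the other comparisons of this list 1 was higher and 3 lower for kTreg against rTreg cells, 1 higher and 1 lower for aTreg against rTreg cells, 1 lower with age in rTreg cells, 1 higher in aTreg cells and 0 of either kind in kTreg cells.

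Of 18 transcription factor genes known from activated and exhausted T cells, 4 were higher (4.13% of all genes) and 2 lower (3.26%) in kTreg than in aTreg cells. The 4 with the smallest p were *Tcf7* (log2 fold change −1.85 ± 0.16, adjusted p = 2.0e-07, limma), a factor of quiescent and memory T cells, *Prdm1*, which encodes BLIMP-1 (1.62 ± 0.26, adjusted p = 0.00022), *Bach2*, a repressor of effector genes (−1.39 ± 0.24, adjusted p = 0.00042), and *Batf*, an AP-1 family member (0.63 ± 0.15, adjusted p = 0.0074). *Bach2* was 980 ± 139 in young aTreg and 246 ± 125 in young kTreg cells (SD, n = 4). In old mice it was 280 ± 49.2 in aTreg and 193 ± 76.4 in kTreg cells, with overlapping ranges. Against rTreg cells 8 of the 18 genes were higher and 4 lower in kTreg cells (9.37% and 6.09%), and 5 were higher and 2 lower in aTreg cells (5.23% and 2.78%). In old rTreg cells 5 were higher than in young ones (4.12%) and 0 lower (1.71%). Old rTreg libraries also had higher median sums of macrophage and monocyte, plasma cell and natural killer cell genes. The part of those cells in these calls was not tested. The age counts were 0 higher and 2 lower in aTreg cells and 1 higher and 0 lower in kTreg cells.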

How the data were processed

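RNA of sorted Treg subsets from 8 mice was amplified with SMART-Seq v4 and sequenced as paired ends by the authors. Per the labels, reads were aligned to GRCm39, and the submitters' processing notes name HISAT2 2.2.1, SAMtools 1.13, HTSeq 1.99.2 and DESeq2 1.44.0. The annotation release, the strand setting and the design formula are not given in the sources used here. The deposited signal values are gene counts divided by a size factor per library. Every value was a whole multiple of 1 read within 0.001 reads, so whole reads were recovered from the deposited counts, 15045747 to 29521942 per library. Each listed gene summed to at least 100 reads. Of 17464 identifiers, 17353 were matched to gene symbols in the GENCODE M39 annotation, and no column was left unused (0).

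The test was limma 3.58.1 (R 4.3.3) with a trend on log2(value + 1), with 6 groups and 24 libraries in 1 model, on the 16630 genes that reached 10 in 4 or more libraries. A call needed a two-sided p under 0.05 after Benjamini-Hochberg adjustment over these genes, and a fold over 1.5. A fold on this scale understates the change of low genes. Subset differences weight both ages equally. Alternatives were 2 other pseudocounts, other filters and scalings, edgeR 4.0.16 (quasi-likelihood) and DESeq2 1.42.0 on the recovered reads, other thresholds, the mouse as a block, and leaving out each library or mouse. The 3 subsets of a mouse come from the same animal according to the series design, and deviations from group means correlated at a median of 0.153, 0.0911 and 0.115 within mice for the 3 pairs of subsets, against −0.033, −0.034 and −0.051 between mice. The scripts were tested on simulated data. All 10 receptor genes are named in every comparison, the genes most like each by Pearson r, and from each list the called genes with the smallest p between kTreg and aTreg cells, at most 4. The members, the lists and the promoter words were chosen with earlier results of these data known. Some genes used to check the labels and other cell types are not reported here. Python 3.11.15 was used for descriptions and figures.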

Additional observations from a re-analysis of the deposited data

Results flagged for a closer look

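Of 60 groups of 4 libraries tested (10 receptor genes in 6 groups), 4 held 1 library far from its group by Dixon's test, where chance gives about 1 in 20. Young mouse 2 accounted for 3 of them. *Cd28* was 7073 in young aTreg replicate 2, below 9755 to 10082 in the others of the group. *Btla* was 2870.4 in the same library, above 2114 to 2214, and *Cd96* was 9173 in young rTreg replicate 2, below 10838 to 11036. The remaining one was *Btla* in old rTreg replicate 3, at 1173 against 2219 to 2264.

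The difference between subsets changed with age, by limma's test of the difference itself, in 3 cases. Of all genes, 3.02% were called for kTreg against rTreg and 1.56% for aTreg against rTreg cells. The excess of *Icos* in kTreg over rTreg cells was lower in old mice by −1.51 (log2, adjusted p = 0.0039). For *Cd96* the kTreg to rTreg difference was higher in old mice by 0.98 (adjusted p = 0.016), and the aTreg to rTreg difference by 0.94 (adjusted p = 0.039). The latter call was lost in 18 of 44 alternative settings, the removal of old aTreg replicate 2 among them. The explanation of these differences was not tested.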

How the results depend on the processing

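Over 103 results of single receptor genes and 44 or 45 alternatives each, 48 results kept call and direction under all of them, and 0 of the called results changed direction. With the mouse as a replicate block, the counts of called receptor genes were 6 instead of 5 in young kTreg against aTreg cells and 6 instead of 4 in young aTreg against rTreg cells, and no other call of a receptor gene changed. The count with age in rTreg cells (3) was 1 with only the groups compared in the model and 5 at an unadjusted p. In aTreg cells (1) it was 0 with only the groups compared. In kTreg cells (1) it was 0 with a pseudocount of 0.5, with no filter, with equal totals and with edgeR, and 3 with only the groups compared and at an unadjusted p. At an unadjusted p the counts were 8 in young and 7 in old kTreg against aTreg cells and 7 in young aTreg against rTreg cells. For the change of a subset difference with age they were 1 (kTreg against aTreg), 6 (kTreg against rTreg) and 6 (aTreg against rTreg), and DESeq2 gave 0, 4 and 2. More of all genes pass at an unadjusted p as well. The shares of all genes called in each alternative setting are not set beside these counts. The counts show how calls depend on the setting and are no result about the receptors.

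Leaving out 1 library or 1 mouse gave 6 to 8 genes for kTreg against aTreg cells, 5 to 7 for kTreg against rTreg and 4 to 5 for aTreg against rTreg cells, 1 to 4 with age in rTreg, 0 to 2 in aTreg and 0 to 1 in kTreg cells. In young mice alone it gave 3 to 6, 6 to 7 and 3 to 6, and in old mice alone 2 to 6, 2 to 4 and 1 to 5. For the change with age it gave 0 to 0, 1 to 4 and 0 to 2. The count of 1 in rTreg cells came without young rTreg replicate 3 or 4 or without young mouse 3, and in old aTreg against rTreg cells without old mouse 4. The count of 4 for the change in kTreg against rTreg cells came without young rTreg replicate 2 or without young mouse 2.

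Small differences changed direction when 1 library or mouse was left out, on the log2 scale. With age in rTreg cells these were *Btla* (−0.26 to 0.055) and *Cd160* (−0.23 to 0.34). In aTreg cells they were *Icos* (−0.036 to 0.12, and −0.020 with equal totals), *Pdcd1* (−0.23 to 0.25, 0.079 with edgeR and 0.081 with DESeq2), *Btla* (−0.094 to 0.067) and *Cd160* (−0.43 to 0.012). In kTreg cells they were *Cd28* (−0.11 to 0.043), *Btla* (−0.33 to 0.25, −0.12 with edgeR and −0.095 with DESeq2) and *Tigit* (−0.11 to 0.075), and *Cd96* in old kTreg against rTreg cells ran from −0.16 to 0.017. The cause was not tested. Low read numbers limit *Lag3* and *Havcr2*.

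Over all genes, the age comparison in kTreg cells called 209 genes with limma, 62 with only the groups compared, 109 with edgeR and 426 with DESeq2. In rTreg cells it called 970, and 504 with only the groups compared. In aTreg cells it called 451, and 837 and 700 with only the groups compared and with DESeq2.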
